A study of Mus musculus with 12 samples.

Results

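Single-base changes were examined at the bases that follow the TAAT core of a homeodomain site, in 100 DNA elements from the mouse genome whose names mark the site as a monomer. Some of these elements hold further sites of the same type elsewhere. Each element has a window of 13 bases in which bases were replaced one at a time. The window was read on the strand where its bases 2 to 7 best match TAATCC, so the core TAAT lies at indices 2 to 5 and the CC at indices 6 and 7. Members are the designed elements of this single-base series whose changed base falls at index 6, 7 or 8. There were 563 members among 3555 elements of the monomer single-base series, 13717 modified elements and 14987 elements in all. The rule picks members by name and sequence and uses no measured value, though it was written with earlier results of these data known.

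A homeodomain is a DNA-binding fold whose recognition helix reads the TAAT core and the bases just after it. Homeodomains with a lysine at a particular place of that helix, the K50 type, favour CC after TAAT, and those with a glutamine there, the Q50 type, favour other bases. CRX and OTX2, regulators of photoreceptor genes, are of the K50 type. The bases at indices 6 and 7 are therefore those by which the types differ, and index 8 is the first base outside the TAATCC site.

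The assay was CRE-seq, in which a pool of designed elements drives a reporter and each is counted through transcribed barcodes. All libraries came from wild-type CD1 mouse retinas taken at postnatal day 0, which received 30 micrograms of library plasmid and 30 micrograms of CAG-GFP plasmid by electroporation and were cultured for 8 days. DsRed was transcribed from the promoter of rhodopsin (pRho) or of Crx (pCrx), with the 100-bp element placed before it and a barcode of 13 bp in the reporter's 3' UTR, and each promoter had 3 replicates that each pooled 5 retinas. A cDNA and a DNA library was made from every pool, giving 12 libraries with 24726849 to 36500857 reads. These libraries hold reporter barcodes only, so the tissue could not be checked against marker genes, and the electroporated cells are a mixture whose types are not resolved. The labels name no batch, no empty-promoter control was analysed, and reads carry no molecular identifiers.

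The windows were alike at the site itself. TAATCC stood at indices 2 to 7 in 97 windows, TAATCT in 2 and TTATCC in 1. In 44 windows the site ran along the element as deposited and in 56 on its opposite strand. Index 8 held T in 50 windows, C in 49 and A in 1. All 300 possible changes were present at index 6. At index 7 there were 206, since the other 94 are named in a separate spacer series of the same elements, and at index 8 there were 57 in 56 windows with 243 in the spacer series. The members at index 8 are therefore mostly 1 kind of change, T to C, with 50 of the 57. A token such as C6T gives the window's own base, its index counted from 1 at the window's first base on the site's strand, and the new base.

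The sequences below are shown because the largest effects and the clearest differences between new bases lay in them. Each is written 5′ to 3′ on the site's strand with the window and 6 bases on either side, and the capital marks the changed base. Positions are those of the whole 100-bp element in mm9.
chr16:64873307-64873406, unmodified at index 6: gcccgtgtaatCctctcagagccta
chr16:64873307-64873406, C6G: gcccgtgtaatGctctcagagccta
chr16:64873307-64873406, C7A: gcccgtgtaatcAtctcagagccta
chr2:113883327-113883426, C6G: tgactgctaatGccccagtgcaggg
chr2:25811052-25811151, unmodified at index 6: tccagcctaatCctctactgacctg
chr2:25811052-25811151, C6G: tccagcctaatGctctactgacctg
chr2:25811052-25811151, C7A: tccagcctaatcAtctactgacctg
chr10:80852993-80853092, C6G: gccgttctaatGcttttagctcatt
chr13:49314178-49314277, C7A: accccactaatcAcctaatccatta
chr14:18585162-18585261, C7A: aggcctttaatcAtcccagtggagt
chr13:104839111-104839210, unmodified at index 6: aagaggataatCctttttgggccag
chr13:104839111-104839210, C6T: aagaggataatTctttttgggccag
chr13:104839111-104839210, C7A: aagaggataatcAtttttgggccag
chr13:104839111-104839210, T8C: aagaggataatccCttttgggccag
chr11:88917445-88917544, C6G: ccagcactaatGcctgcctgctgtt
chr6:121449375-121449474, C6G: gcaggattaatGcttgcaacagctc
chr6:121449375-121449474, C6T: gcaggattaatTcttgcaacagctc
chr4:115642333-115642432, C8T: ctggccctaatccTcctagctttct

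Activity is given as the log2 of cDNA over DNA reads, summed over the 6 or 7 barcodes of an element and set relative to the typical element of that promoter's library. An effect is the activity of the changed element minus that of its unmodified parent, so a negative effect means less reporter RNA per template. Whether fewer cells transcribed an element or each cell made less RNA cannot be told apart. Effects were tested with edgeR's quasi-likelihood test over all 13717 modified elements, and a member is said to have fallen or risen where its Benjamini-Hochberg adjusted p was under 0.05. The 3 replicates of a promoter share the same barcodes, so this test does not cover differences between barcodes. A limma test with barcodes as the units was set beside it.

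Across all members, changes after the core lowered activity more often than they raised it. In edgeR their rates were close to those of all modified elements. On pRho, 256 of 563 members fell (45.5%), against 43.7% of all modified elements, and 74 rose (13.1%), against 16.3%. On pCrx, 235 fell (41.7%), against 43.7%, and 47 rose (8.35%), against 10.7%. The mean effect was -0.19 on pRho (SD over members 0.42) and -0.24 on pCrx (SD 0.48), beside -0.23 and -0.32 over all modified elements. In the limma test on barcodes, 110 members fell (19.5%) and 11 rose on pRho, where 23.5% and 5.62% of all modified elements did. On pCrx that test found 125 lower (22.2%) and 19 higher, where 28.1% and 4.8% of all modified elements were. Each member share in that test was below the share over all modified elements. Member effects correlated between replicates with r of 0.792 to 0.865 for pRho and 0.742 to 0.789 for pCrx over the 563 members, which share their parents within a window.

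The 3 indices differed. At index 6, the first C after the core, 148 of 300 members fell on pRho (49.3%) and 146 on pCrx (48.7%), while 41 and 28 rose. At index 7, the second C, 97 of 206 fell on pRho (47.1%) and 79 on pCrx (38.3%), while 24 and 17 rose. At index 8, just outside the site, 11 of 57 fell on pRho (19.3%) and 10 on pCrx (17.5%), while 9 and 2 rose. The shares at indices 6 and 7 lie within 6 percentage points of the 43.7% of all modified elements, and those at index 8 lie below it on both promoters. Over all 300 changes at index 8, the spacer series included, 72 fell on pRho (24.0%) and 67 on pCrx (22.3%).

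The mean effects gave the same order. At index 6 the mean in the 3 replicates was -0.20, -0.23 and -0.24 on pRho and -0.27, -0.32 and -0.28 on pCrx. At index 7 it was -0.17, -0.20 and -0.21 on pRho and -0.22, -0.24 and -0.22 on pCrx. At index 8 it was -0.01, 0.01 and -0.04 on pRho and -0.08, -0.07 and -0.12 on pCrx. The values at index 8 did not overlap with those at the other 2 indices on either promoter, and those of indices 6 and 7 overlapped on pRho only.

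The same order was seen within windows. Over the 56 windows with a member at index 8, index 6 minus index 8 was -0.23, -0.28 and -0.21 in the 3 pRho replicates and -0.11, -0.18 and -0.10 in those of pCrx. Index 7 minus index 8 was -0.22, -0.29 and -0.21 on pRho and -0.10, -0.16 and -0.10 on pCrx. The members at index 8 are mostly T to C, here and in the counts and means above. For them, index and kind of new base therefore cannot be told apart. Over all 100 windows, index 6 minus index 7 was -0.02, -0.03 and -0.02 on pRho and -0.05, -0.08 and -0.05 on pCrx. Each of these differences had 1 sign in all 3 replicates, and an exact two-sided sign-flip permutation test over 3 replicates cannot give a p below 0.25, which it gave for each.

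Set in the whole window, the bases after the core lie on a slope. Here all single-base changes of a window were taken, whatever series names them, which makes 300 at each index but for 292 at index 4. On pRho the mean effect was 0.02 at index 1, -0.24, -0.38, -0.38 and -0.22 over the core at indices 2 to 5, -0.22 at index 6, -0.18 at index 7 and -0.07 at index 8. Beyond the site it was -0.07 at index 9 and between -0.03 and -0.01 at indices 10 to 13. On pCrx the mean effect was -0.08 at index 1, and the core means were -0.40, -0.48, -0.50 and -0.37. They were followed by -0.29, -0.21 and -0.13 at indices 6, 7 and 8 and by -0.14 to -0.09 from index 9 to 13. The mean at index 6 thus equalled that of the last core base on pRho to 2 decimals. On pCrx index 5 minus index 6 was -0.08, -0.07 and -0.10 in the 3 replicates, so the last core base had the lower mean in each. Index 8 had the mean of index 9 to within 0.01 on both promoters.

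Which base replaced the first C made little difference on average. On pRho, C6G had a mean effect of -0.26 (SD over 100 members 0.51) with 56 falls and 15 rises, C6A -0.22 (SD 0.39) with 49 and 10, and C6T -0.19 (SD 0.42) with 43 and 16. Those means leave 83.4%, 86.0% and 87.8% of the parent's activity. On pCrx the means were -0.31, -0.29 and -0.26, with 52, 49 and 45 falls and 9, 10 and 9 rises. The mean of C6G minus that of C6T was -0.06, -0.10 and -0.06 in the pRho replicates and -0.10, 0.00 and -0.05 in those of pCrx.

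New bases were also tested against each other in the same window, without the parent. At index 6 on pRho, 119 of 300 pairs of new bases differed (39.7%), beside 43.2% of the 6637 such pairs in both single-base series, and on pCrx 58 did (19.3%), beside 30.6%. On pRho, G was lower than T in 34 windows and higher in 13, and A was higher than G in 30 and lower in 14. On pCrx, G was lower than T in 15 windows and higher in 3. The test on barcodes found that 11 of the 300 pairs differed on pRho and 4 on pCrx. These are smaller shares than the 8.32% and 8.98% of all pairs.

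At the second C, adenine had lower means than guanine. C7A had a mean effect of -0.24 on pRho (SD over 98 members 0.38), with 51 falls and 10 rises, and -0.29 on pCrx (SD 0.51), with 44 and 10. C7G had -0.18 on pRho (SD 0.38), with 46 and 10, and -0.18 on pCrx (SD 0.40), with 33 and 7. C7A minus C7G was -0.04, -0.06 and -0.06 in the pRho replicates and -0.12 in each of those of pCrx. Tested window by window, A was lower than G in 13 of 98 windows and higher in 7 on pRho, and lower in 21 and higher in 7 on pCrx. In edgeR 20.4% of these pairs differed on pRho and 28.6% on pCrx, below the 43.2% and 30.6% of all such pairs. On barcodes 1 pair differed on pRho and 7 on pCrx, where 8.32% and 8.98% of all pairs did.

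Only 4 of the 98 possible C7T changes are members, since the others are named as spacer variants. Taken over all 98, whatever their name, C7T had a mean effect of -0.13 on pRho and -0.19 on pCrx, with 33 and 24 falls. The remaining members at index 7 come from the 2 windows with TAATCT. There T7C, which turns the site into TAATCC, rose in both windows on pRho, by 0.32 and 0.37. On pCrx its mean effect was 0.07 and neither member passed. T7A rose in 1 of these windows on pRho, and T7G passed in neither. None of these 3 rises passed on barcodes, where the limma adjusted p was 0.188 and 0.0908 for T7C and 0.605 for T7A.

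At index 8, T8C, the change that gives TAATCCC, had a mean effect near 0. On pRho its mean was 0.03, 0.05 and 0.01 in the 3 replicates, with 8 falls and 9 rises among 50 members, and on pCrx -0.08, -0.07 and -0.11, with 9 falls and 2 rises. The 3 values of one promoter do not overlap with those of the other, which also held for all changes at index 1. The spacer series supplies the other new bases at these 50 windows. T8A, taken over all its names, had a mean effect of -0.16 on pRho and -0.22 on pCrx, with 18 falls on each. T8A minus T8C was -0.21, -0.18 and -0.19 on pRho and -0.11, -0.16 and -0.14 on pCrx, lower in every replicate. T8G fell in 4 windows and rose in 10 on pRho, and fell in 5 and rose in 6 on pCrx. In the 49 windows with C at index 8, C8A likewise had the lowest means of the 3 new bases, at -0.17 and -0.29, beside -0.04 and -0.06 for C8G and -0.07 and -0.13 for C8T.

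Windows differed in how they responded at the first C. On pRho all 3 new bases at index 6 fell in 31 of 100 windows, none fell in 35 and all 3 rose in 6. On pCrx the counts were 30, 35 and 4. A window with 1 new base that fell and another that rose was found in 3 windows on pRho and in 1 on pCrx. The new bases of a window share their parent, and across the 100 windows their effects correlated with r of 0.71 to 0.771 for pRho and 0.797 to 0.833 for pCrx.

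At indices 6 and 7 falls were more frequent where the parent was active. Among 174 members at index 6 whose parent was above the typical element on pRho, 108 fell and 3 rose, with a mean effect of -0.36. Among 99 with a parent below the typical element, 23 fell and 36 rose, with a mean of 0.05. On pCrx the counts were 109 falls and 2 rises among 150 with an active parent, with a mean of -0.55, and 19 falls and 26 rises among 105 with a weak one, with a mean of 0.08. At index 7 on pCrx, 62 of 103 members with an active parent fell and none rose, and 7 of 72 with a weak one fell. At index 7 on pRho, 68 of 119 with an active parent and 19 of 68 with a weak one fell. Index 8 went the other way on pRho, where 4 of 32 with an active parent and 6 of 19 with a weak one fell, while on pCrx 5 of 26 and 4 of 22 did. Of all 14987 elements, 43.2% were above and 45.7% below the typical element on pRho, and 37.4% and 38.5% on pCrx (edgeR). Of all modified elements, whatever their parent, 43.7% fell and 16.3% rose on pRho, and 43.7% and 10.7% on pCrx. Those shares are not split by the parent's activity. The relation was not particular to these bases, since it was also seen for a change in the core. Across the 100 windows the mean effect at index 6 correlated with the parent's activity at r = -0.533 on pRho and -0.671 on pCrx. For A4C, the core change described next, r was -0.706 and -0.824. The parent's measured activity enters the effect with a minus sign, so its error alone gives a relation of this direction, and its share in these counts and correlations was not tested.

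The changes were compared with one that inactivates the core, A4C, in which the second A of TAAT is replaced by C. A4C had a mean effect of -0.39 on pRho and -0.55 on pCrx over the 100 windows. Members were higher than A4C of their own window in 266 cases on pRho and lower in 105, where 51.3% and 18.6% of all 3263 changes at the other indices were higher and lower. On pCrx 219 were higher and 50 lower, where 41.4% and 11.8% were. T8C stood above A4C in 32 of 50 windows on pRho and 25 on pCrx.

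In the 60 windows where A4C fell on pRho, its mean was -0.90. Members at index 6 in those windows had a mean of -0.45, and 131 of 180 fell and none rose. Over all modified elements in all windows, 43.7% fell on pRho and 43.7% on pCrx. Members at index 7 had a mean of -0.36, with 84 of 122 falls. Members at index 8 had a mean of -0.01 where A4C had -0.81, with 6 falls and 4 rises among 33. On pCrx the 54 windows where A4C fell had a mean of -1.12, against -0.59 at index 6 with 124 of 162 falls and -0.46 at index 7 with 69 of 110. The windows were picked by A4C against the same parent, whose error all these effects share. They were also picked on A4C's own effect, so its means in them are low by that choice. Over all 100 windows its mean was -0.39 on pRho and -0.55 on pCrx. The gaps between A4C and the members here are therefore no measure of relative strength. On pCrx index 8 had a mean of -0.10, against -1.13 for A4C, and 4 of 24 fell.

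In the 19 windows where A4C rose on pRho, 31 of 57 members at index 6 rose and 2 fell, and 16 of 40 at index 7 rose and 4 fell, where 16.3% of all modified elements rose. In the 9 such windows on pCrx, 16 of 27 rose and 5 fell at index 6, and 9 of 18 rose and 0 fell at index 7, where 10.7% of all modified elements rose. These windows too were picked by A4C's own effect against the shared parent. Across windows, the mean effect at index 6 correlated with that of A4C at r = 0.748 on pRho and 0.773 on pCrx (n = 100 windows). At index 7 r was 0.624 and 0.743, and at index 8 it was -0.059 and 0.057 over 56 windows. All effects of a window share the parent's reads, which alone can give a positive correlation. How much of each correlation comes from that shared term was not tested.

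The lowest members on pRho lay in the window of chr16:64873307-64873406. Its parent had an activity of -0.22, -0.52 and -0.38 in the 3 pRho replicates. C6G had -2.05, -2.02 and -1.64, far below the parent in every replicate, for an effect of -1.52 (SE 0.11), a 2.87-fold decrease with an edgeR adjusted p of 3.9e-17. C6T had -1.78, -1.89 and -1.92, for an effect of -1.49, and C6A had -1.58, -1.63 and -1.39, for an effect of -1.16. At the second C, C7A had -1.61, -1.78 and -1.68, for an effect of -1.31 (SE 0.11). None of these values overlapped with the parent's. They are close to the effect of A4C in the same window, -1.41. C7G fell less, by 0.58. With barcodes as units the limma adjusted p was 5.5e-05 for C6G, 3.9e-05 for C6T and 0.00018 for C7A, and 0.0627 for C6A.

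On pCrx this window behaved otherwise. The parent had -0.70, -0.50 and -0.39, and C6G had -0.85, -0.68 and -0.69, which overlaps with the parent. Its effect was -0.21 (SE 0.13, edgeR adjusted p = 0.185). C6A had an effect of 0.18 (adjusted p = 0.312), and C6T and C7A fell by 0.47 and 0.39. The edgeR test of the difference between promoters gave an effect higher on pCrx by 1.31 for C6G (SE 0.18, adjusted p = 3.6e-08), by 1.34 for C6A and by 1.01 for C6T. With barcodes as units that difference had an adjusted p of 0.00211 for C6G, 0.0592 for C6A and 0.00612 for C6T.

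Another large fall on pRho was C6G at chr2:113883327-113883426. The parent had 1.21, 1.31 and 1.16, and C6G had -0.19, -0.19 and -0.22. No replicate came near the parent, and the effect was -1.43 (SE 0.10, edgeR adjusted p = 1.6e-17). C6T and C6A of the same window fell by 0.91 and 0.80 on pRho, and A4C by 1.89. On pCrx C6G fell by 0.71 (limma on barcodes adjusted p = 0.329).

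The lowest member on pCrx was C6G in chr2:25811052-25811151. The parent was among the active elements there, at 1.66, 1.65 and 1.49. C6G had -0.43, -0.19 and -0.06, for an effect of -1.83 (SE 0.13, edgeR adjusted p = 5.6e-12), a 3.55-fold decrease. C7A had 0.06, 0.14 and 0.19, for an effect of -1.47 (SE 0.12), and C7G had 0.25, 0.17 and 0.26, for an effect of -1.37 (SE 0.12). All 3 lay below every parent value. C6A and C6T fell by 1.21 and 1.31, and A4C by 2.05.

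The same changes at chr2:25811052-25811151 were smaller on pRho. The parent had 1.15, 1.04 and 1.25 there, and C6G had 0.42, 0.42 and 0.39, for an effect of -0.73. C7A had 0.84, 1.02 and 0.99, just below the parent, for an effect of -0.19 that did not pass (edgeR adjusted p = 0.0786). A4C fell by 1.36 on this promoter. The promoter difference of C7A was -1.27 (SE 0.16, edgeR adjusted p = 5.6e-09), with an adjusted p of 0.00951 with barcodes as units.

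The next lowest members on pCrx after it, C6G and C6A, lay in the window of chr10:80852993-80853092. Its parent had 1.70, 2.00 and 1.36 there. C6G had 0.19, 0.01 and 0.15, for an effect of -1.59 (SE 0.16, edgeR adjusted p = 3.7e-09). C6A had 0.21, 0.26 and 0.20 and C7A 0.08, 0.41 and 0.28, for effects of -1.48 and -1.44. Every value of these 3 lay below the parent. C7G of this window was milder, with an effect of -0.33 on pCrx that did not pass (adjusted p = 0.0596), and A4C fell by 2.63. On pRho C6G, C6A and C7A fell by 0.70, 0.48 and 0.50.

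C7A was also the lowest change at index 7 in a pair of further windows on pRho. At chr14:18585162-18585261 the parent had 1.06, 1.44 and 1.17 and C7A 0.22, 0.34 and 0.09, for an effect of -1.0 (SE 0.10, edgeR adjusted p = 1.1e-12). C7G of that window fell by 0.80, C7T by 0.60 and A4C by 1.42. At chr14:21592856-21592955 the parent had 0.30, 0.60 and 0.51 and C7A -0.39, -0.71 and -0.60, for an effect of -1.04 (SE 0.14), and C7T had an effect of 0.11 that did not pass. The C7A effect at chr14:21592856-21592955 did not pass with barcodes as units (limma adjusted p = 0.173).

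The C7A change at chr13:49314178-49314277 is among those that differed between the promoters. In that window the parent had 0.20, 0.19 and 0.04 on pRho, and C7A had 0.15, 0.11 and 0.37. The groups overlapped, and the effect of 0.07 did not pass (edgeR adjusted p = 0.627). On pCrx the parent had 1.60, 1.50 and 1.21 and C7A -0.01, 0.64 and 0.26, all below the parent, for an effect of -1.14 (SE 0.15, adjusted p = 5.1e-07). The promoter difference was -1.21 (SE 0.20, adjusted p = 1.8e-06), with 0.00278 with barcodes as units. A4C fell on both promoters there, by 0.98 and 2.71, and C7G fell by 0.53 on pCrx (limma on barcodes adjusted p = 0.284) and did not pass on pRho.

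The 3 highest members on pCrx lay in chr13:104839111-104839210. Its parent was weak on both promoters, at -1.27, -1.10 and -1.19 on pRho and -0.20, -0.72 and -0.74 on pCrx. On pCrx C6T had 1.17, 1.57 and 1.27, for an effect of 1.90 (SE 0.17, edgeR adjusted p = 3.9e-10), a 3.73-fold increase. C6G had 1.05, 1.25 and 1.37 and C7A 1.04, 1.02 and 1.37, for effects of 1.77 and 1.71. All 9 values lay above the parent. On pRho C6G rose by 0.93 and C6T by 0.36, and C7A had an effect of 0.13 that did not pass. A4C rose in this window too, by 1.25 on pRho and 1.04 on pCrx.

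Index 8 of chr13:104839111-104839210 went the opposite way. T8C had -2.41, -2.18 and -2.39 on pRho, all below the parent, for an effect of -1.13 (SE 0.14, edgeR adjusted p = 3.6e-10), the lowest of all members at index 8. T8A and T8G of the spacer series fell there by 1.32 and 1.61. On pCrx T8C had -0.71, -1.39 and -0.69, which overlaps with the parent (adjusted p = 0.133). Tested on barcodes, T8C on pRho had a limma adjusted p of 0.0072. The element holds 2 further K50-type sites outside the window.

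The highest members at index 6 on pRho did not pass with barcodes as units. At chr11:88917445-88917544 the parent had -1.76, -1.66 and -1.57 on pRho, and C6G had -0.79, -0.41 and -0.52, all above it, for an effect of 1.09 (SE 0.12, edgeR adjusted p = 1.4e-11). C6T rose by 0.98 and C6A by 0.52. None of the 3 passed with barcodes as units, where the adjusted p ran from 0.123 for C6G to 0.642 for C6A. On pCrx this parent was among the active ones, at 1.71, 2.07 and 1.69, and C6G had 1.79, 1.77 and 1.58 with an effect of -0.11 that did not pass (adjusted p = 0.454). C6T fell by 0.29 on pCrx (edgeR adjusted p = 0.0468, limma on barcodes adjusted p = 0.239).

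The highest members at index 7 on pRho were both C7G. At chr4:153972639-153972738 the effect was 1.17 (SE 0.13), from a parent at -1.56, -1.70 and -1.53 to -0.55, -0.55 and -0.17, with an edgeR adjusted p of 3.7e-11 and a limma adjusted p on barcodes of 0.214. At chr15:66793972-66794071 the effect was 1.04 (SE 0.14), from -2.64, -2.65 and -2.78 to -1.67, -1.44 and -1.81, with 0.0358 on barcodes. At chr13:99768373-99768472 C7G rose by 1.25 on pCrx (SE 0.15), from -1.71, -1.21 and -1.20 to -0.13, 0.01 and -0.23. These 3 parents lay below the typical element on the promoter where C7G rose, and no replicate of the changed element overlapped with its parent.

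Other members at index 8 had moderate effects. C8T at chr4:115642333-115642432 had -1.10, -1.27 and -0.84 on pRho, below a parent at -0.32, -0.19 and 0.07, for an effect of -0.93 (SE 0.12, edgeR adjusted p = 2.3e-09). C8G of that window fell by 0.80 and C8A by 0.23 on pRho, while A4C had an effect of 0.02 that did not pass (adjusted p = 0.892). T8C at chr6:31242227-31242326 had -1.83, -1.77 and -2.01 on pRho beside a parent at -1.19, -1.18 and -1.19, and fell by 0.68 on pRho and 0.82 on pCrx. Neither of these T8C effects passed with barcodes as units (limma adjusted p 0.757 and 0.219).

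The other T8C changes named here, at chr10:127412717-127412816, chr11:107283234-107283333, chr2:155799293-155799392 and chr3:146056050-146056149, passed in edgeR but not on barcodes. On pRho the first 3 rose by 0.66, 0.61 and 0.41, and the last fell by 0.64. Their limma adjusted p on barcodes for pRho was 0.589, 0.968, 0.394 and 0.514. T8C at chr8:122368580-122368679 fell by 0.66 on pCrx, with 0.792 on barcodes.

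The windows whose new bases at index 6 differed most are given next. At chr6:121449375-121449474 the parent had -0.35, -0.13 and 0.01 on pRho. C6G had 0.50, 0.30 and 0.74, all above the parent, for a rise of 0.66, and C6A rose by 0.32. C6T had -0.61, -0.26 and -0.32, which overlaps with the parent, for an effect of -0.24 that did not pass (edgeR adjusted p = 0.081). C6G stood above C6T by 0.90 on pRho (SE 0.12, edgeR adjusted p = 1.6e-07) and by 0.92 on pCrx (SE 0.14, adjusted p = 1.7e-05). On barcodes those differences had adjusted p values of 0.00676 and 0.124. A4C rose in this window as well, by 0.54 and 0.49.

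At chr8:122368580-122368679, C6A had -2.58, -2.84 and -2.40 on pRho beside a parent at -1.88, -1.58 and -1.73, and fell by 0.89 (limma on barcodes adjusted p = 0.612). C6T there had -1.57, -1.56 and -1.54, and C6A minus C6T was -1.06 (SE 0.17, edgeR adjusted p = 6e-06; 0.0429 on barcodes). At chr4:44041516-44041615 C6G rose by 0.45 on pRho and C6T fell by 0.60, a difference of 1.05 that did not pass on barcodes (adjusted p = 0.44). A4C of that window rose by 2.07 on pRho and by 1.0 on pCrx. There C6G, C6T and C6A went the other way on pCrx, with falls of 0.74, 0.75 and 0.58. The limma adjusted p of these falls on barcodes was 0.0213, 0.0663 and 0.241. On pCrx, C6A minus C6G was -0.98 at chr8:125874065-125874164 and C6G minus C6T was -0.95 at chr14:15555640-15555739. Neither passed with barcodes as units (adjusted p 0.0947 and 0.512).

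The promoters were set against each other with an interaction test over all 12 libraries. The effect was higher on pCrx for 89 members, or 15.8% beside 15.1% of all modified elements, and lower for 117, or 20.8% beside 23.7%. On barcodes 16 of the 563 were higher and 27 lower, smaller shares than the 3.71% and 10.1% of all modified elements. In edgeR 133 members fell on both promoters and 24 rose on both, while 11 rose on pRho and fell on pCrx and 9 did the reverse. The same shares over all modified elements are not given here, so whether these counts are high or low for members was not tested. Effects on the promoters correlated at r = 0.358 over the 563 members, as a description.

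The mean effect at index 6 was also set out by the number of other K50-type sites in the element, counted as TAATCC on either strand, or the same with T as its last base or with TAAG in place of TAAT or with both, anywhere but at the site itself. In the 49 elements with none, its mean was -0.31 on both promoters. With 1 other site, in 39 elements, the means were -0.19 on pRho and -0.31 on pCrx, and with 2 or more, in 12 elements, 0.02 and -0.11. The medians over members in these classes were -0.32, -0.18 and -0.06 on pRho and -0.34, -0.30 and -0.24 on pCrx. The last class had an SD over members of 0.70 on pCrx. It includes chr13:104839111-104839210, where C6T rose by 1.90 on pCrx. A further site overlapped the window in 9 elements, among them chr13:49314178-49314277, and counted outside the window alone the classes held 55, 38 and 7 elements with means of -0.29, -0.18 and 0.09 on pRho and -0.31, -0.27 and -0.18 on pCrx. Their medians were -0.31, -0.18 and -0.04 on pRho and -0.34, -0.26 and -0.41 on pCrx, so on pCrx the median was lowest in the 7 elements. On pRho the mean at index 7 was -0.27 in windows with T at index 8 and -0.12 in those with C, and on pCrx it was -0.23 in both. None of these differences was tested over elements.

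The authors' deposited table of comparisons lists 541 members. By the adjusted p of the authors' deposited table, 128 of them had fallen on pRho and 108 on pCrx, and 33 and 13 had risen. Of the falls in the authors' deposited table, 125 on pRho and 102 on pCrx were falls here as well, and so were 31 and 13 of the rises. The log2 values of the authors' deposited table correlated with the effects given here at r = 0.975 on each promoter.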

How the data were processed

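Barcode reads were counted in 12 libraries (3 cDNA and 3 DNA libraries for each promoter). The deposited counts are raw reads of each barcode. For alignment and counting, no tool is given in the sources used here; mm9 is the genome build in the submitters' processing notes. The authors' deposited table of comparisons gives log2 fold changes and p-values and was used only for comparison. Each element was taken as the central 100 bp of its named 200-bp region, 1-based. No gene was assigned to an element, as the gene table used for names is of another build.

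Counts were summed over barcodes. Elements needed 10 DNA counts in each DNA library, and 0 failed. Pairs of variant and parent were fitted over the whole table by the quasi-likelihood test of edgeR 4.0.16 (R 4.3.3) with TMM scaling, as the interaction of allele with cDNA against DNA, with Benjamini-Hochberg adjustment; the SE is the absolute log2 effect over the root of F. limma 3.58.1 tested barcode log2 ratios (pseudocount 1, mean DNA count of at least 10) averaged over replicates. DESeq2 1.42.0 was an alternative. Median reads per member and library ran from 1219 to 2369. On simulated counts for the 13717 pairs of each promoter, the edgeR step recovered 81% of changes of 0.5 and 100% of changes of 1 (log2) on pRho, and 39% and 99% on pCrx.

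By the labels' protocols, cDNA and DNA of one number come from one pool. Deviations of same-numbered libraries from their means correlated at r from -0.036 to 0.05, and the fit had no replicate block. Members, lists and rules were chosen with earlier results of these data known. Members were named by rule: at each index and promoter the 3 lowest and 2 highest effects among those past the test with 1 sign in all replicates, the 3 largest promoter differences each way, and on each promoter the 3 windows whose new bases at index 6 differed most. Other bases of those windows are given beside them. The 10 members on chromosome 18 were counted and not named. Alternatives were other scalings, filters, thresholds, window sets and left-out replicates.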

Additional observations from a re-analysis of the deposited data

Results flagged for a closer look

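For 27 named changes the edgeR test found that the effect differed between the promoters (difference of log2 effects, pCrx minus pRho, adjusted p under 0.05). At chr16:64873307-64873406 the difference was 1.31 for C6G, 1.34 for C6A, 1.01 for C6T and 0.92 for C7A, all from falls on pRho. Of these, C6T and C7A fell on pCrx too, by less. At chr13:104839111-104839210 it was 1.54 for C6T, 0.85 for C6G and 1.57 for C7A, from larger rises on pCrx, and 0.78 for T8C. On pRho C6T and C6G of that window rose as well, by 0.36 and 0.93. At chr2:25811052-25811151 it was -1.10 for C6G, -1.27 for C7A and -1.05 for C7G, and at chr10:80852993-80853092 -1.0 for C6A, -0.89 for C6G and -0.94 for C7A, from larger falls on pCrx. At chr11:88917445-88917544 it was -1.27 for C6T and -1.20 for C6G, from rises on pRho. C6T of that window also fell on pCrx, by 0.29. At chr4:44041516-44041615 the difference was -1.19 for C6G and -0.84 for C6A.

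The remaining windows had 1 such change each. The difference was 0.71 for C6G at chr2:113883327-113883426, 0.94 for C6A at chr8:122368580-122368679, 0.89 for C6G at chr8:125874065-125874164 and 1.18 for C6T at chr14:15555640-15555739. At index 7 it was -1.21 for C7A at chr13:49314178-49314277, 0.77 for C7A at chr14:21592856-21592955, 0.66 for C7G at chr13:99768373-99768472 and -0.96 for C7G at chr4:153972639-153972738. At index 8 it was -0.95 for T8C at chr10:127412717-127412816. With barcodes as units the difference passed for 3 of the named changes at chr2:25811052-25811151, for C6G and C6T at chr16:64873307-64873406, for C6G at chr2:113883327-113883426, and for C7A at chr13:104839111-104839210 and chr13:49314178-49314277.

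Over the 50 T8C members the replicate means lay above 0 on pRho (mean 0.03) and below 0 on pCrx (mean -0.09) in all 3 replicates of each. This difference of means was not tested over members. It is not particular to T8C, since changes at index 1 had replicate means of 0.03, 0.02 and 0.02 on pRho. On pCrx those at index 1 were -0.07, -0.09 and -0.09.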

How the results depend on the processing

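On pRho 256 members fell and 74 rose, and on pCrx 235 and 47. With barcodes as units the counts were 110 and 11 on pRho and 125 and 19 on pCrx, pairs of new bases that differed numbered 11 and 4 at index 6 (119 and 58 in edgeR) and 1 and 7 at index 7 (28 and 29), members higher than A4C 162 and 138, lower 40 and 15, and promoter differences 16 higher and 27 lower. The mean at index 8 on pCrx was then -0.13, as it was without the barcode of highest ratio, against -0.088. Without that barcode the mean at index 7 on pCrx was -0.24, as in windows with TAATCC only, against -0.23. Over all single-base changes at these indices, whatever their name, the member mean was -0.16 on pRho and -0.21 on pCrx, the mean at index 8 -0.068 and -0.13, and the pairs that differed at index 7 numbered 92 and 77. For parents above the typical element the means were -0.29 and -0.48 over members, -0.36 and -0.55 at index 6, -0.27 and -0.46 at index 7, and 0.043 at index 8 on pRho, which reversed -0.011, with 15 and 2 rises. At an adjusted p under 0.01, 29 members rose on pCrx. The causes of these shifts were not tested.

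Leaving out each replicate in turn gave 214 to 240 falls on pRho and 182 to 193 on pCrx, 50 to 66 and 30 to 42 rises, 56 to 71 higher and 75 to 93 lower promoter differences, and 76 to 93 and 31 to 39 differing pairs at index 6, 14 to 25 and 15 to 23 at index 7. Members lower than A4C on pCrx numbered 33 to 41, and the mean at index 8 on pRho ran from -0.024 to 0.0031, above 0 without replicate 3. The fit with a replicate block gave 261 falls on pRho and 241 on pCrx, with 76 and 50 rises, and changed none of 30 named calls. With barcodes as units 18 of those 30 calls held and 11 no longer passed. T8C at chr11:107283234-107283333 on pRho reversed, at -0.02 with barcodes as units and -0.16 without the barcode of highest ratio in each element, against 0.61. In counts simulated from the edgeR fit, without differences between barcodes, 39% of changes of 0.5 on pCrx were recovered.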
